A study of Mus musculus with 6 samples.

Results

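The Akr1c genes of the mouse encode aldo-keto reductases of subfamily 1C, and 8 of them (Akr1c6, Akr1c12, Akr1c13, Akr1c14, Akr1c18, Akr1c19, Akr1c20 and Akr1c21) were followed here in sorted bone marrow cells, out of 19938 named genes on the arrays. A gene was taken where the platform annotation gives its symbol as the only one of a probe set. Each of the 8 had 1 such probe set, so no choice between probe sets was needed, and 0 probe sets listed a member among several symbols. The family was picked because its genes were high in BCR-ABL cells against vector cells in earlier results of these data. The differences from vector are therefore given as a description, without p-values.

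The study used 6 whole-transcript Affymetrix arrays, with 2 biological replicates in each of 3 groups. In all groups, marrow of C57BL/6 donor mice that had received 5-fluorouracil was infected with a retrovirus and given to recipients of the same strain; the age on the labels is 8 weeks and the genotype is wild type throughout. The BCR-ABL-Blk group carried the fusion oncogene BCR-ABL together with Blk and GFP, the BCR-ABL group carried BCR-ABL and GFP, and the vector group carried GFP alone. After 14 days, marrow cells that were GFP+, lineage-negative, c-Kit+ and Sca-1+ were sorted; the labels name the first and second group leukemic stem cells and the vector group HSCs. BCR-ABL, a kinase that is always on, drives chronic myeloid leukemia. Blk belongs to the Src kinases and is best known in B lymphocytes. Because both genes came by retrovirus into transplanted marrow, only infected donor cells inside this gate were measured, and the labels give neither the number of mice behind a replicate nor whether cells were pooled. P-values here set a group difference against the spread between these samples, which is estimated with help from the other genes. Whether that is a spread between mice or between pools is not known.

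Aldo-keto reductases use NADPH or NADH to turn aldehydes and ketones into alcohols, or run the reverse reaction. The 1C subfamily is known for steroid work: its members act at the 3, 17 or 20 position of the steroid molecule. They so switch hormones such as progesterone, androgens and oestrogens between strong and weak forms. Several members also take small alcohols and aldehydes that are not steroids. The mouse genes lie side by side in 1 cluster on chromosome 13, and neighbouring copies can be nearly identical, so that a probe set named for one can also read its copy.

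In the RefSeq table the 8 members followed each other without another protein-coding gene between them, in the order Akr1c14, Akr1c18, Akr1c13, Akr1c19, Akr1c12, Akr1c6, Akr1c20 and Akr1c21. The 4 members with the highest differences from vector, described below, were the second to the fifth in this row. Their sequence just before the transcription start is shown so that the likeness of Akr1c12 and Akr1c13, and the letters that recur in them and in Akr1c19 but not in Akr1c18, can be seen. Each is the 250 bases before the start, 5′ to 3′ on the gene's own strand, from RefSeq (GRCm38.p6), at chr13:4279400-4279649 on the minus strand for Akr1c12, chr13:4190937-4191186 on the plus strand for Akr1c13, chr13:4233490-4233739 on the plus strand for Akr1c19 and chr13:4150647-4150896 on the minus strand for Akr1c18. Capitals mark the letters CATTAG on either strand.
Akr1c12: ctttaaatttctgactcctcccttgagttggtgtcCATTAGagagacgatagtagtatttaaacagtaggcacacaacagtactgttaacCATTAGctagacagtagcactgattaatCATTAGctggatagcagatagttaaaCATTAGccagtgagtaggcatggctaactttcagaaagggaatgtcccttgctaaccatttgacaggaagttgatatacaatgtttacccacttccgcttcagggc
Akr1c13: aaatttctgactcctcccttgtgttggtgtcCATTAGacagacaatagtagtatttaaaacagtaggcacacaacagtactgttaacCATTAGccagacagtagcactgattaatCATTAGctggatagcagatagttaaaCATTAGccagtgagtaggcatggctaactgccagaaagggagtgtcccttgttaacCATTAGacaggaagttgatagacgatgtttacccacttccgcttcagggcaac
Akr1c19: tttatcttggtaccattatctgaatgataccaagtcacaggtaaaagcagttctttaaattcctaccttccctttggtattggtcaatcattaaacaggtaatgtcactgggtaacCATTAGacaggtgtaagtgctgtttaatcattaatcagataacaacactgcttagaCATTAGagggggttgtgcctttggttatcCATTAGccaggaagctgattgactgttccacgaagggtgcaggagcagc
Akr1c18: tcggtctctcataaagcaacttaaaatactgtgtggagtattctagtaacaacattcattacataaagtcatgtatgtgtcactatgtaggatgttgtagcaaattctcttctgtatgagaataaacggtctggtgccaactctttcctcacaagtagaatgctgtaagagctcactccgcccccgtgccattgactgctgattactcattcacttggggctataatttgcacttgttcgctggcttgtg

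Promoters of 300 bases, 250 before and 50 after the start, were found for 7 of the 8 members, all but Akr1c20. Those of Akr1c12 and Akr1c13 were nearly the same: in a global alignment 284 bases matched, 94.7% of the 300. Akr1c19 matched each of them at 195 bases (65.0%), little more than the other 18 pairs of members, at 57.7% to 64.3%. Per aligned base Akr1c19 was no closer to Akr1c12 (72.8%) than Akr1c18 was (77.9%), while Akr1c12 and Akr1c13 shared 95.9%. The letters CATTAG stood 4 times in the Akr1c12 promoter, 5 times in that of Akr1c13 and 3 times in that of Akr1c19, each time on the gene's own strand. They stood once each in those of Akr1c6 and Akr1c21 and 0 times in those of Akr1c18 and Akr1c14. Of 32851 mouse promoters of this length, 7.36% held CATTAG at least once on either strand and 0.0274% held it at least 3 times, which is 9 promoters including these 3. The other measured genes among the 9 were Cyp2c39, a cytochrome P450, and Fmo9, a flavin monooxygenase gene. Cyp2c39 differed from vector by 0.23 in BCR-ABL-Blk cells and by 0.10 in BCR-ABL cells, and Fmo9 by -0.05 and by -0.10 in the same order; none of these passed (limma adjusted p from 0.490 to 0.931). CATTAG was chosen by reading these promoters, so its count is a description and no factor is named for it.

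Textbook cores of 5 factor families were searched on both strands in the same windows. The STAT core TTCNNNGAA, which 8.30% of all promoters hold, matched Akr1c19 once, 24 bases before the start, and none of the other 6 promoters. The antioxidant response core TGACNNNGC (12.4% of promoters) matched Akr1c19 alone, once, 8 bases after the start. The ETS core CGGAAG (16.9%) matched Akr1c12 and Akr1c13 once each, 15 and 18 bases before the start, on the opposite strand. The GATA core AGATAA (11.2%) matched Akr1c19 at 3 places, which 0.107% of promoters reach, and the RUNX core TGTGGT (16.8%) matched 0 of the 7 members. No match overlapped another, and a match is a string of letters in this window and not a binding site.

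Values below are log2 signals, quantile normalized between arrays because the deposited columns differed in their medians (7.01 to 7.52). A difference of 1 on this scale is a doubling of the signal. No background level is known for these arrays, so a fold is one of signal, and at low signal it may understate the change in RNA. Across the array, the SE of a group difference had a median of 0.129. Kit, which the gate selects for, read 10.3 to 10.9 on the 6 arrays. Ly6a, the gene of Sca-1, had no probe set of its own here. Among 7 measured lineage genes 0 passed in any comparison. Of all genes 0.14% passed between BCR-ABL-Blk and vector and 0.145% between BCR-ABL and vector, so nothing is read from that count. The 7 differed from vector by -1.87 to 0.05 in BCR-ABL-Blk cells and by -1.84 to 0.20 in BCR-ABL cells. A list of stem and progenitor cell genes held 5 measured ones, of which only Kit was sorted on. Of these 1 was called, Cd48, a surface protein of many blood cells. It differed from vector by 0.38 in BCR-ABL-Blk cells (limma adjusted p = 0.0714) and by 0.47 in BCR-ABL cells (adjusted p = 0.0493). The 5 ran from -0.32 to 0.995 in BCR-ABL-Blk cells and from -0.39 to 1.21 in BCR-ABL cells.

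Akr1c12 and Akr1c13, reductases first known from mouse stomach, showed the largest differences of the family. Akr1c12 read 11.34 and 11.29 in BCR-ABL-Blk, 11.43 and 11.22 in BCR-ABL, against 6.98 and 6.87 on the vector arrays. The 4 arrays with BCR-ABL lay close together, with a widest gap of 0.20, and more than 4 above both vector arrays. The difference from vector was 4.39 (95% interval 4.09 to 4.69, SE 0.13), or 21.0-fold, in BCR-ABL-Blk cells. In BCR-ABL cells it was 4.40 (4.10 to 4.71, SE 0.13), or 21.1-fold. In each comparison it was the highest difference of all 19938 genes.

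Akr1c13 read 11.45 on both BCR-ABL-Blk arrays, 11.57 and 11.43 in BCR-ABL, against 8.995 and 8.60 on the vector arrays. Again the groups with BCR-ABL did not overlap with vector, and the vector arrays differed more from each other (0.39) than the arrays of the other groups did (0 and 0.14). These gaps depend on the scaling: the deposited pairs were 11.62 and 11.50 in BCR-ABL-Blk, 11.49 and 11.41 in BCR-ABL, and 8.85 and 8.72 in vector. After normalization the difference from vector was 2.65 (2.32 to 2.99), or 6.29-fold, in BCR-ABL-Blk cells. In BCR-ABL cells it was 2.70 (2.37 to 3.04), or 6.51-fold. These were ranks 5 and 8 from the top among all genes. Over the 6 arrays Akr1c12 and Akr1c13 correlated at r = 0.997, a description of 6 points that share arrays and fall in 2 clusters. Only the promoters of the 2 genes were compared, not their transcripts or the probes. How much of either signal came from the other gene's RNA was not tested.

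Akr1c18 encodes 20-alpha-hydroxysteroid dehydrogenase, which turns progesterone into a weak product and is best known from the ovary at the end of pregnancy. It read 6.15 and 6.97 in BCR-ABL-Blk, 6.53 and 7.39 in BCR-ABL, against 5.45 and 5.46 on the vector arrays. All 4 arrays with BCR-ABL were above both vector arrays, but they were spread: the 2 arrays of a group differed by 0.82 in BCR-ABL-Blk and by 0.86 in BCR-ABL, against 0.015 in vector. The lower array of each pair was the one labelled replicate 1. The difference from vector was 1.11 (0.36 to 1.86, SE 0.32), or 2.16-fold, in BCR-ABL-Blk cells and 1.51 (0.76 to 2.26, SE 0.32), or 2.84-fold, in BCR-ABL cells. Among all genes these ranked 83 and 39 from the top. Without BCR-ABL-Blk replicate 1 the BCR-ABL-Blk difference was 1.52 and without replicate 2 it was 0.70; without BCR-ABL replicate 1 the BCR-ABL difference was 1.94 and without replicate 2 it was 1.07.

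Akr1c19, an alcohol dehydrogenase of the family, read 6.26 and 5.14 in BCR-ABL-Blk, 5.82 and 6.00 in BCR-ABL, against 4.82 and 4.65 on the vector arrays. Replicate 2 of BCR-ABL-Blk stood close to vector, while the other 3 arrays with BCR-ABL were about 1 or more above it. The difference from vector was 0.97 (0.25 to 1.68, SE 0.31), or 1.95-fold, in BCR-ABL-Blk cells. In BCR-ABL cells it was 1.18 (0.46 to 1.89, SE 0.31), or 2.26-fold. Ranks among all genes were 124 and 85 from the top. The BCR-ABL-Blk value rested on its first replicate: it was 0.41 without that array and 1.52 without the second.

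**Figure D1:**
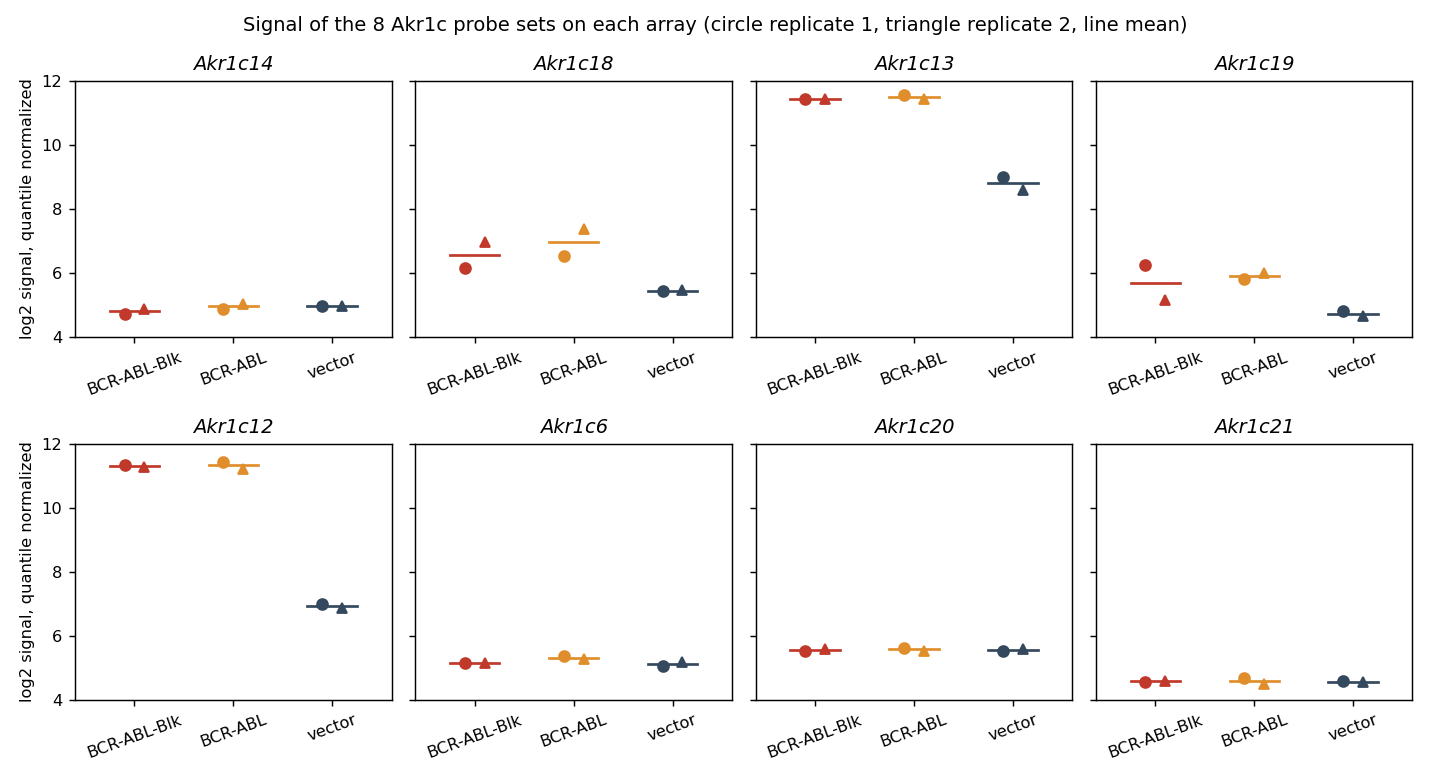
Log2 signal of each Akr1c probe set (vertical axis, quantile normalized) on the 6 arrays, by group, in the order of the genes on chromosome 13; circles are replicate 1, triangles replicate 2 and lines the mean of 2. Akr1c12 and Akr1c13 sit above 11 on all 4 arrays with BCR-ABL and below 9 on the vector arrays, Akr1c18 and Akr1c19 are higher with more spread, and Akr1c14, Akr1c6, Akr1c20 and Akr1c21 stay between 4.48 and 5.62.

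The remaining members are steroid enzymes best known from liver and kidney, and on average they read within 0.20 of vector in both groups with BCR-ABL. Akr1c6, the 17-beta-hydroxysteroid dehydrogenase also called Hsd17b5, read 5.14 on both BCR-ABL-Blk arrays, 5.35 and 5.26 in BCR-ABL, against 5.05 and 5.17 on the vector arrays. Both BCR-ABL arrays lay above both vector arrays, by 0.20 on average (-0.01 to 0.40), while the BCR-ABL-Blk and vector arrays overlapped (difference 0.03, -0.18 to 0.23). Akr1c14, a 3-alpha-hydroxysteroid dehydrogenase, read 4.71 and 4.89 in BCR-ABL-Blk, 4.88 and 5.03 in BCR-ABL, against 4.98 and 4.96 on the vector arrays. It was the only member with both BCR-ABL-Blk arrays below both vector arrays, by a difference of -0.17 (-0.41 to 0.06), and it did not separate BCR-ABL from vector (-0.01, -0.25 to 0.22).

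Akr1c20 read 5.51 and 5.59 in BCR-ABL-Blk, 5.62 and 5.53 in BCR-ABL, against 5.53 and 5.58 on the vector arrays. Akr1c21, the 3(17)-alpha-hydroxysteroid dehydrogenase of kidney, read 4.56 and 4.59 in BCR-ABL-Blk, 4.685 and 4.48 in BCR-ABL, against 4.59 and 4.54 on the vector arrays. For both genes all groups overlapped. Akr1c20 differed from vector by -0.0017 in BCR-ABL-Blk and by 0.03 in BCR-ABL cells, and Akr1c21 by 0.01 and by 0.02. All 4 of these 95% intervals lay between -0.22 and 0.25. Whether the RNA of these 4 genes was above background on any array was not measured, so these values do not show that the RNA is present and constant.

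In the fit over all genes, 2 of the 8 members, Akr1c12 and Akr1c13, were called higher (adjusted p under 0.05) between BCR-ABL-Blk and vector, where 0.0953% of all genes were, and 0 were called lower, against 0.0451%. The same 2 were called higher between BCR-ABL and vector, where 0.12% were, and 0 lower, against 0.0251%. In either direction 0.14% and 0.145% of all genes were called. Both arrays of BCR-ABL-Blk lay above both vector arrays for 4 members, against 19.7% of all genes, and below them for 1, against 17.5% (37.2% in either direction). Both BCR-ABL arrays lay above both vector arrays for 5 members, against 22.1% of all genes, and below them for 0, against 14.9% (37% in either direction). The median difference of the 8 members was 0.50 between BCR-ABL-Blk and vector and 0.69 between BCR-ABL and vector, with medians of all genes at 0.00 and 0.02. These counts carry the choice of the family and nothing is read from them. Both comparisons use the same vector arrays.

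**Figure D2:**
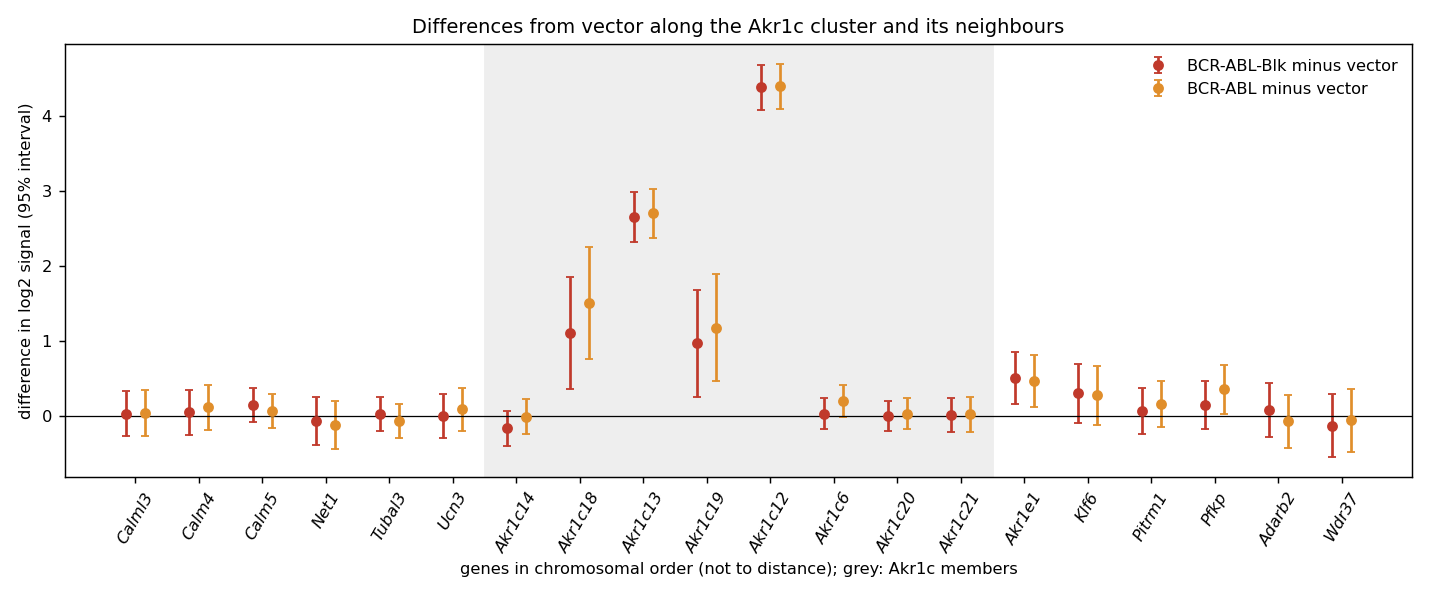
Difference in log2 signal from vector (vertical axis, with 95% intervals from the fit) for BCR-ABL-Blk and BCR-ABL cells, for the 8 Akr1c members (grey) and the 6 nearest named genes on each side, in chromosomal order but not to distance. Akr1c18, Akr1c13, Akr1c19 and Akr1c12 stand next to each other between 0.97 and 4.40, while the 12 neighbours lie between -0.13 and 0.50.

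The genes next to the cluster were set beside it. The nearest 6 named protein-coding genes on each side were taken, and 0 of the 12 passed in any comparison. This is near the shares of all genes called against vector (0.14% in BCR-ABL-Blk and 0.145% in BCR-ABL cells), and nothing is read from it. On the side of Akr1c14 these were Ucn3, Tubal3, Net1, Calm5, Calm4 and Calml3, with differences from vector of 0.00 to 0.14 (Net1 at -0.08) in BCR-ABL-Blk cells and of -0.12 to 0.11 in BCR-ABL cells. On the side of Akr1c21 the nearest was Akr1e1, an aldo-keto reductase of another subfamily that reduces 1,5-anhydrofructose. Akr1e1 read 10.28 and 10.67 in BCR-ABL-Blk, 10.36 and 10.50 in BCR-ABL, against 10.01 and 9.93 on the vector arrays. It thus lay above vector on all 4 arrays with BCR-ABL without passing, by 0.50 (limma adjusted p = 0.332) and 0.46 (adjusted p = 0.407). Klf6, Pitrm1, Pfkp, Adarb2 and Wdr37 followed, with differences from -0.13 to 0.30 in BCR-ABL-Blk cells and from -0.07 to 0.35 in BCR-ABL cells.

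Between BCR-ABL-Blk and BCR-ABL cells none of the 8 members passed the test. This contrast was not the one that chose them, but it subtracts the same BCR-ABL arrays and so is not independent of the choice. All 8 had an adjusted p of 0.999 (limma, over 19938 genes). Akr1c12 differed between BCR-ABL-Blk and BCR-ABL cells by -0.01 (95% interval -0.31 to 0.29) and Akr1c13 by -0.05 (-0.38 to 0.28). These intervals reach no further than 0.38 from 0, while the same genes stood 4.39 and 2.65 above vector. Akr1c18 differed by -0.40 (-1.15 to 0.35) and Akr1c19 by -0.21 (-0.93 to 0.51), so for these a halving of the signal lies within or near the interval. Akr1c6 differed by -0.17 (-0.38 to 0.04), and it was the only member whose BCR-ABL-Blk arrays both lay below the BCR-ABL arrays, as 20% of all genes did. Both arrays lay above for 0 members, against 14%, and 34% of all genes were apart in either direction. Akr1c14 differed by -0.16 (-0.39 to 0.08), Akr1c20 by -0.03 (-0.23 to 0.18) and Akr1c21 by -0.01 (-0.24 to 0.22).

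All 8 values were below 0, with a median of -0.10 beside -0.01 over all genes, and nothing is read from that shared sign. With each array centred on its median they ran from -0.415 to -0.04. With the values as deposited, where the median gene itself differed by 0.255, they ran from -0.115 to 0.26, and only Akr1c20 lay above the median gene. In this comparison 0 of all genes were called by limma, which is 0%, and 790 had an unadjusted p under 0.05 (3.96%).

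**Figure D3:**
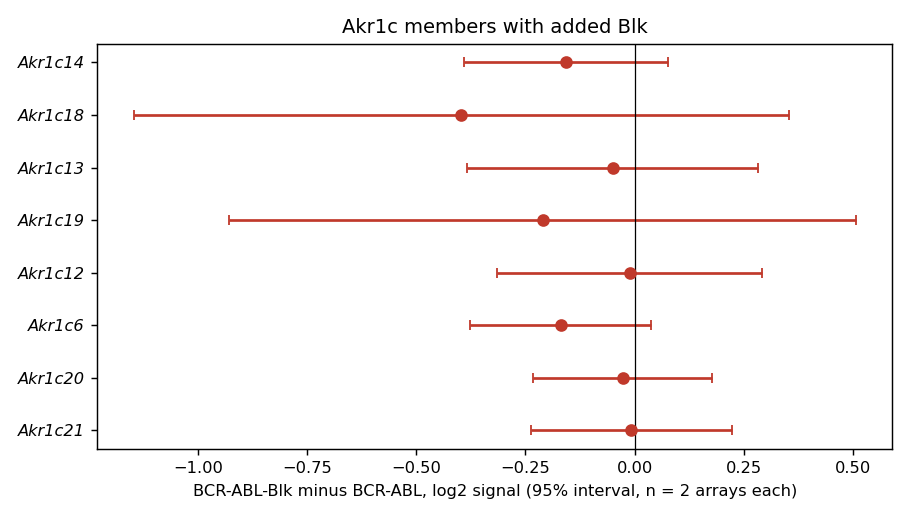
Difference in log2 signal between BCR-ABL-Blk and BCR-ABL cells (horizontal axis, with 95% intervals, n = 2 arrays each) for the 8 members in chromosomal order. Every interval spans 0; those of Akr1c18 and Akr1c19 are the widest and those of Akr1c12 and Akr1c13 stay within 0.4 of 0.

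Other genes of the same chemistry were set beside the family. Of all genes, 0.14% were called between BCR-ABL-Blk and vector, 0.145% between BCR-ABL and vector and 0% between BCR-ABL-Blk and BCR-ABL. A count of 0 in a short list is near these shares, and nothing is read from it here or in the lists below. Of 10 measured aldo-keto reductases outside the 1C cluster list, 0 passed in any of the 3 comparisons, and their median difference was -0.03 between BCR-ABL-Blk and vector and 0.01 between BCR-ABL and vector. After Akr1e1, the largest in BCR-ABL cells were Akr7a5 (-0.14 in BCR-ABL-Blk and -0.26 in BCR-ABL cells against vector), Akr1b10 (-0.52 and -0.24) and Kcnab2, a potassium channel subunit with the same fold (0.32 and 0.19). Akr1a1, the general aldehyde reductase, gave -0.01 and 0.03, and its groups overlapped. Of 24 aldehyde and alcohol dehydrogenases and carbonyl reductases 0 passed (medians 0.00 and 0.06). Aldh1a1, a retinaldehyde dehydrogenase, gave -1.25 and -0.81, Dhrs3, a retinal reductase, -0.62 and -0.72, Rdh10, a retinol dehydrogenase, 0.38 and 0.61, and Aldh7a1 0.32 and 0.40. The vector arrays themselves differed for Rdh10 (9.27 and 7.59) and Aldh1a1 (9.29 and 8.22), and for Rdh10 the first of them lay above all 4 arrays with BCR-ABL. The adjusted p-values of this list were at least 0.197.

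Steroid genes were examined as the partners of the family. Of 24 measured genes of steroid synthesis and conversion 0 passed, with a median of 0.05 between BCR-ABL-Blk and vector and 0.10 between BCR-ABL and vector. Cyp11a1, the enzyme that makes pregnenolone from cholesterol, read 7.83 and 7.16 in BCR-ABL-Blk, 7.64 and 8.22 in BCR-ABL, against 6.01 and 6.55 on the vector arrays. The groups did not overlap with vector, yet the differences of 1.21 (adjusted p = 0.206) and 1.65 (adjusted p = 0.103) did not pass. Cyp11a1 is also in the list of mast cell markers described below. Fdx1, the electron carrier of Cyp11a1, gave 0.39 and 0.48, Hsd11b1, which activates glucocorticoids, -0.28 and -0.51, and Srd5a3 0.22 and 0.40. Of 7 receptor and membrane binding genes for steroids 0 passed; Pgrmc1 gave 0.18 and 0.43, Nr3c1, the glucocorticoid receptor, -0.09 and 0.20, Pgrmc2 -0.14 and 0.14, and Pgr, the progesterone receptor, -0.18 and -0.12.

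NRF2 is the transcription factor that answers oxidative stress, and human AKR1C genes are among its known targets. Of 25 measured genes of that pathway 0 passed in any comparison, and the medians were -0.07 between BCR-ABL-Blk and vector and -0.02 between BCR-ABL and vector. Gsta4, a glutathione transferase, gave 1.22 and 1.47 but varied between the vector arrays (8.88 and 6.83). Me1 gave 0.65 and 0.77, the cystine transporter Slc7a11 -0.11 and 0.55, and haem oxygenase Hmox1 -0.80 and -0.42. Between BCR-ABL-Blk and BCR-ABL 21 of the 25 lay below 0, with a median of -0.12 and an adjusted p of 0.999 each.

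Human AKR1C3 also makes prostaglandin F, so prostaglandin enzymes were followed. Of 12 measured 0 passed; Tbxas1, thromboxane synthase, gave 1.24 (adjusted p = 0.0941) and 1.11 (adjusted p = 0.142), Ptgr1 -0.425 and -0.39, the synthase Hpgds 0.00 and 0.46, and Ptgs2, inducible cyclooxygenase, -0.02 and 0.37. Of 13 interleukin-3 family receptors and STAT5 pathway genes 0 passed. The feedback inhibitor Socs2 gave 2.75 and 2.69 (adjusted p = 0.0863 and 0.103), with vector arrays at 8.96 and 7.205, and Cish 0.79 and 1.02. Bcl2l1 gave 0.36 and 0.54, and the receptor chain Il3ra -0.44 and -0.59.

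The genes whose pattern was most like Akr1c12 were ranked by Pearson's r over the 6 arrays among 1141 genes with a range of at least 1, the family itself left out. Because the arrays fall in 2 clusters, a high r mainly says that the vector arrays were alike and low and the other 4 alike and high; 94 of these 1141 genes had r over 0.9 and 2 over 0.99. The order is a description, with no test. Prkcq, protein kinase C theta, came first (r = 0.998): it read 9.39 and 9.29 in BCR-ABL-Blk, 9.41 and 9.42 in BCR-ABL, against 7.89 and 7.79 on the vector arrays. Cc2d2a, a protein of the ciliary base, followed (r = 0.9902) with differences from vector of 1.12 in BCR-ABL-Blk and 1.01 in BCR-ABL cells. Ndrg2 (r = 0.988) differed by 2.44 and 2.14, and Rai14, an actin-binding protein (r = 0.987), by 0.94 in both. Podxl, a sialomucin related to CD34 (r = 0.985), differed by 1.74 and 1.79 and Dock1, an activator of Rac (r = 0.983), by 0.99 and 0.88. The adhesion molecule Ncam2 (r = 0.980) differed by 2.74 and 2.95 and Ctla2a, a cysteine protease inhibitor (r = 0.979), by 0.86 and 0.98.

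Within the family, Akr1c18 and Akr1c19 correlated with Akr1c12 at r = 0.839 and r = 0.832 and with each other at r = 0.594. The remaining members had r with Akr1c12 between -0.441 for Akr1c14 and 0.545 for Akr1c6.

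**Figure D4:**
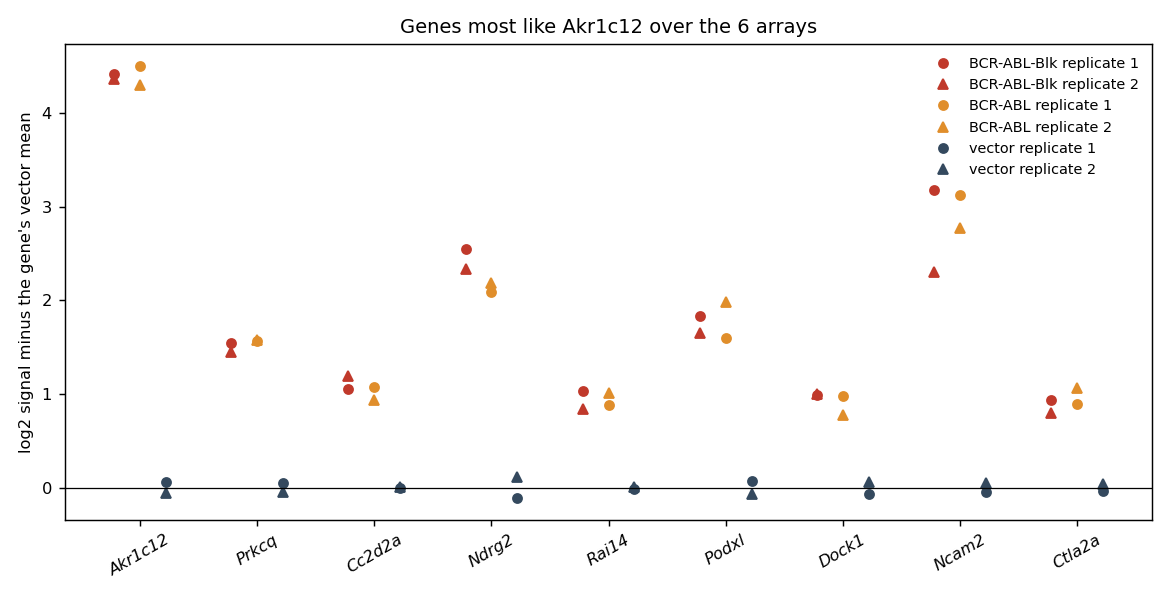
Log2 signal of Akr1c12 and of the 8 genes most like it over the 6 arrays, each minus its own vector mean (vertical axis), by array; colours are groups, circles replicate 1 and triangles replicate 2. The vector arrays lie around 0 because their mean is subtracted. The Akr1c12 difference of 4.39 to 4.40 is the highest of all genes in both comparisons, and those of the other 8 are 0.86 to 2.95.

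Marker genes of other cell types moved between the same arrays, and in bulk RNA fewer cells of a type and less RNA per cell cannot be told apart. The mean of 17 markers of mast cells, basophils and eosinophils was 8.83 and 7.99 in BCR-ABL-Blk, 8.66 and 8.78 in BCR-ABL, against 7.92 and 7.91 on the vector arrays. Against vector 11 of the 17 lay above 0 in BCR-ABL-Blk cells and 12 in BCR-ABL cells. The list went both ways: 6 lay below 0 in BCR-ABL-Blk cells, down to -1.11, and 5 in BCR-ABL cells, down to -0.98. In each comparison 1 of the 17, Gzmb, was called higher and 0 were called lower. Of all genes 0.14% and 0.145% were called in the same order, and nothing is read from 1 gene. Akr1c12 and Akr1c13 were as high on replicate 2 of BCR-ABL-Blk, where this mean stood near vector, as on the other arrays with BCR-ABL. Akr1c19 was lowest among the arrays with BCR-ABL on that same array, and Akr1c18 was not. The part of these cells in the signals of Akr1c12, Akr1c13, Akr1c18 and Akr1c19 was not tested.

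All 9 measured B cell markers lay below 0 in both comparisons with vector, with list means of 8.43 and 8.03 in BCR-ABL-Blk, 7.71 and 8.11 in BCR-ABL, against 10.80 and 9.20 on the vector arrays. So did all 10 monocyte and macrophage markers, with means of 8.24 and 8.44, 8.21 and 8.64, and 9.39 and 9.48 in the same order of groups; 1 of the 10, the chemokine receptor Ccr2, was called lower in BCR-ABL-Blk cells. All 10 neutrophil and all 7 erythroid markers also lay below 0 in both comparisons, and all 8 megakaryocyte markers above 0, with medians of 0.55 in BCR-ABL-Blk and 0.70 in BCR-ABL cells and 0 called. Of 10 T and NK cell markers 1 was called, lower in both comparisons. This was Klrd1, a receptor chain of NK cells, at -1.03 in BCR-ABL-Blk and -1.29 in BCR-ABL cells against vector. The list went both ways: 4 of the 10 lay above 0 in BCR-ABL-Blk cells, the highest at 1.46. In BCR-ABL cells 6 did, the highest at 1.34. Akr1c12 differed by 0.11 between the vector arrays, between which the B cell mean differed most. The share of these cells in the family's differences was not tested.

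**Figure D5:**
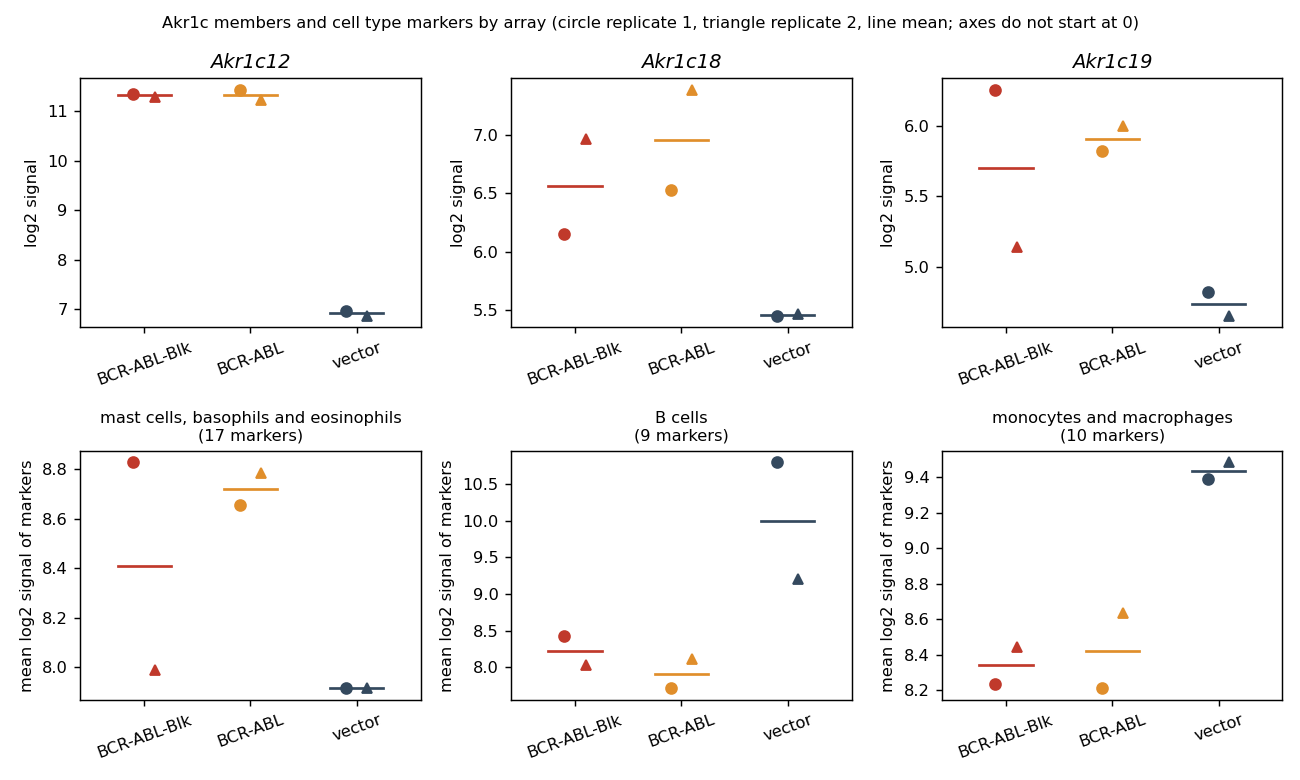
Log2 signal of Akr1c12, Akr1c18 and Akr1c19 (upper row) and mean log2 signal of markers of mast cells, basophils and eosinophils, of B cells, and of monocytes and macrophages (lower row) on the 6 arrays by group; circles are replicate 1, triangles replicate 2, lines means, and axes do not start at 0. On replicate 2 of BCR-ABL-Blk the mast cell, basophil and eosinophil mean (7.99) and Akr1c19 (5.14) are near vector while Akr1c12 (11.29) is not.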

How the data were processed

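RNA of 6 sorted cell samples was labelled and hybridised to 1 array each. The authors deposited log2 values of 35557 probe sets, made with Affymetrix Expression Console 1.1 and RMA per the submitters' processing notes. The options and the genome build were not stated there. Groups and replicate numbers came from the titles. The arrays were quantile normalized (limma 3.58.1, R 4.3.3). The platform annotation gave 1 symbol to 21789 probe sets and several to 1621, and 12147 were unnamed here; per gene the probe set with the highest mean was kept, which left 19938 genes. The 3 groups were fitted together with lmFit and eBayes with an intensity trend (3 residual degrees of freedom, 4.40 added by the prior). P-values are two-sided and Benjamini-Hochberg adjusted over all genes, and a call is an adjusted p under 0.05. The fit was also run on simulated data with independent normal errors of the fitted spread. Such data hold no array effects, so that run says nothing about those in the real arrays. No filter on level was used.

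Promoters came from RefSeq (GRCm38.p6) and were aligned with Biopython 1.88, with 1 for a match, -1 for a mismatch, -2 to open and -0.5 to extend a gap. Members, gene lists and the naming rule were chosen with earlier results of these data known. By that rule every member is named, then all called genes of the 7 lists or else up to 4 with the largest BCR-ABL difference from vector, the 6 neighbours on each side, and the 8 genes with the highest r with Akr1c12. Cyp2c39, Fmo9, Akr1a1, Kit, Cd48, Ccr2, Klrd1 and Gzmb were named after their values were seen. Alternatives were other scalings, variance models, feature sets, a replicate block and leaving out each array. The number of arrays limits the precision.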

Additional observations from a re-analysis of the deposited data

How the results depend on the processing

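The Akr1c12 difference from vector stayed between 4.34 and 4.51 in BCR-ABL-Blk cells and between 4.30 and 4.50 in BCR-ABL cells over 15 alternatives. Only other scalings and leaving out an array of the groups compared could move it or the Akr1c13 difference. The other alternatives gave the difference of the main fit unchanged, so the range says nothing about them. Calls of members against vector are counts on the values that chose them, with nothing read from them. The Akr1c13 difference stayed between 2.46 and 2.85 and between 2.51 and 2.90 in the same order. It was not called in BCR-ABL cells without either BCR-ABL array, and in both comparisons with all probe sets tested. That last setting changes both the variance fit and the number of features adjusted together, and the part of each was not tested. With the values as deposited 4 members were called against vector in each comparison, Akr1c18 and Akr1c19 being added; with all probe sets tested 1 was. Leaving out 1 array gave 2 to 3 called members for BCR-ABL-Blk and 1 to 3 for BCR-ABL.

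Counts over all genes moved far more. Between BCR-ABL-Blk and vector, 28 genes were called, and 732 with the values as deposited, 4 without an intensity trend, 14 with array weights, 71 with only genes above the median level, 1 with all probe sets tested, 4 with only the 4 arrays compared, and 4 to 560 when 1 array was left out. Between BCR-ABL and vector, 29 were called, and 401, 15 (no trend), 53 (above the median level), 1 (all probe sets) and 1 to 507 (1 array left out). Leaving out vector replicate 1 gave the highest counts (560 and 507); either BCR-ABL array left out gave the lowest (4 and 1). Between BCR-ABL-Blk and BCR-ABL, 0 were called, and 79 with the values as deposited and 0 to 2 when 1 array was left out. The cause was not tested.

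Between BCR-ABL-Blk and BCR-ABL the median gene differed by 0.255 with the values as deposited. There the differences of all members but Akr1c18 (-0.115) were above 0: Akr1c6 0.105, Akr1c12 0.15, Akr1c13 0.11, Akr1c14 0.11, Akr1c19 0.075, Akr1c20 0.26 and Akr1c21 0.24, none called. With each array centred on its median all 8 stayed below 0 (-0.415 to -0.04). With 1 array left out the ranges were -0.113 to 0.0908 for Akr1c12, -0.12 to 0.02 for Akr1c13, -0.83 to 0.0346 for Akr1c18, -0.77 to 0.35 for Akr1c19, -0.0725 to 0.0175 for Akr1c20 and -0.11 to 0.10 for Akr1c21. A lone array was assumed to vary like the others.

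The labels do not say whether same-numbered replicates were handled together. Over all genes, same-numbered deviations correlated at 0.03, 0.08 and -0.06 between the 3 pairs of groups. Shared handling, which could touch only some genes, was not tested. A replicate block gave 23, 29 and 0 called genes in the 3 comparisons (BCR-ABL-Blk and BCR-ABL against vector, then BCR-ABL-Blk against BCR-ABL) and changed no member's call.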
